A study of Homo sapiens with 24 samples.

Results

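Described here are 962 short genomic intervals that resemble genes of small nuclear RNAs (snRNAs) and lie dispersed over the human genome, out of 175946 intervals in a small RNA count table, 2036 of which are typed snRNA. They were chosen by type and name: snRNA intervals of at most 400 bp, none of whose names begins with RNU, RNVU, U6, RN7SK or 7SK. The rule itself uses no measured value, though it was set with earlier results of these data known. The intervals span 80 to 348 bp (median 157 bp), and in 626 of 933 cases with a RefSeq gene at the same place they run from 25 bp before that gene to 25 bp after it. A U name is carried by 494, an Ensembl identifier of another species by 371, an Rfam number by 76, a SNAR name by 17 and a mouse symbol by 4. They are named below by the symbol of the RefSeq gene (GRCh38.p14) they overlap.

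By the number in their own name, 103 intervals are U1, 132 U2, 83 U4 and 27 U5, and 617 have another name. Reading Rfam numbers and RefSeq symbols as well resolved most of the others: 605 belong to families that RNA polymerase II transcribes, namely 120 U1, 147 U2, 90 U4, 27 U5, 200 U7, 16 U4atac, 4 U11 and 1 U12. A further 340 belong to families of RNA polymerase III, namely 308 U6, 8 U6atac, 7 7SK and 17 SNAR. The remaining 17 could not be placed. The set is therefore not one of RNA polymerase II copies alone. It is called the dispersed copies here, and the main counts are also given for the 605 copies of RNA polymerase II families. Of those 605, RefSeq annotates 545 as pseudogenes and 42 as snRNA genes, and 18 matched no RefSeq gene.

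The samples were HEK293, a human embryonic kidney cell line of wild type genotype, overexpressing eGFP as the control (GFP), LMNA (the gene of lamins A and C), LMNB1 or LMNB2 (the genes of lamins B1 and B2). Per group there were 3 ATAC-seq libraries, which read open chromatin, and 3 libraries of small RNA, made after enriching total RNA for it. How the genes were delivered and whether replicates were separate cultures are not given in the sources used here, so p-values measure the spread between these libraries, which may be technical. Summed counts ran from about 132507000 to 195075000 per small RNA library and from 156043000 to 290158000 per ATAC library over the feature windows, and PCR copies cannot be told from separate molecules. The 5 microRNAs listed from the MIR17 cluster, abundant in this line, all had counts, at a summed 32.9 to 64.5 counts-per-million (CPM) in GFP, 26.03 to 48.9 in LMNA, 34.5 to 38.04 in LMNB1 and 23.5 to 25.8 in LMNB2. Among 13 microRNAs of blood, liver, muscle and neurons, MIR451A and MIR133B were at 0. The summed level of these 13, most of it MIR9-1, was 0.266 to 1.47 CPM in GFP, 0.281 to 0.469 in LMNA, 0.233 to 0.489 in LMNB1 and 0.185 to 0.241 in LMNB2.

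The spliceosome removes introns with 5 RNA-protein particles built on the U1, U2, U4, U5 and U6 snRNAs. U1 pairs with the 5′ splice site, U2 with the branch point, U5 holds the exon ends, and U4 escorts U6. The less abundant U11, U12, U4atac and U6atac serve a minor class of introns, and U7 acts in histone pre-mRNA 3′ end processing. RNA polymerase II transcribes snRNA genes from a proximal sequence element that is bound by the SNAPc complex. Mammalian genomes also hold many snRNA-like copies, most of them made when an snRNA was reverse transcribed and inserted elsewhere, so most lack a promoter of their own. Variant U1 genes, named RNVU1, can carry a working promoter.

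The start of 4 copies is shown with the bases before it, out of 7 for which a RefSeq promoter window (GRCh38.p14) covers part of the copy or of the bases before it. These windows belong to other RefSeq genes. They are LOC105379574 at RNVU1-2A and LOC105374852 at RNU2-63P, on the strand opposite to the copy. At RNU1-28P it is LOC105370449 and at RNU4-29P LOC124902190, on the strand of the copy. The 4 stretches are printed 5′ to 3′ on the strand of the copy. Capitals mark the bases of the copy, where the window reaches it, and upstream the letters ACCGTG, a core of the proximal sequence element. RNVU1-2A lies at chr1:144551965-144552063 on the minus strand, all upstream of the copy, and RNU1-28P at chr14:34556359-34556509 on the minus strand. RNU2-63P lies at chr2:88016389-88016667 on the minus strand and RNU4-29P at chr9:83275821-83275986 on the plus strand.
RNVU1-2A: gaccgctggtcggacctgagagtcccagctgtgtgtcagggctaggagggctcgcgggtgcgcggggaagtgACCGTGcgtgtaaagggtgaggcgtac
RNU1-28P: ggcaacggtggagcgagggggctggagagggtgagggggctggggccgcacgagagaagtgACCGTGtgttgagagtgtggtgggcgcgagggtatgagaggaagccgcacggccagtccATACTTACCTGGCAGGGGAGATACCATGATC
RNU2-63P: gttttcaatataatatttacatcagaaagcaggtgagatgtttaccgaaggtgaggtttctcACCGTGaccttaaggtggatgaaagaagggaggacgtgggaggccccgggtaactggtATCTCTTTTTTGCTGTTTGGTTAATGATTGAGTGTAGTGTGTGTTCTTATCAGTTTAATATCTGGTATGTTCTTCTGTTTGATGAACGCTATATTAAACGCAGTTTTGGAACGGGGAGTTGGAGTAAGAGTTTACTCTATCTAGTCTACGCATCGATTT
RNU4-29P: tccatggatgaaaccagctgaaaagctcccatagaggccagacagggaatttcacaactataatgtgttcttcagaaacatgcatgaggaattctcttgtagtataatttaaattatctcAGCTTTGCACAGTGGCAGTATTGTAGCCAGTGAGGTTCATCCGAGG

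ACCGTG began 48 bases upstream of RNVU1-2A, 59 upstream of RNU1-28P and 58 upstream of RNU2-63P, each time on the strand of the copy, and was not found in the RNU4-29P stretch. Nor was it found in the stretches of the 3 copies not shown, RNU1-65P, SNAR-G1 and RNU7-27P. RNU7-27P had an open ATAC window all the same, as given below, and whether the letters go with opening was not tested. The letters were chosen after these sequences had been seen. Searched on both strands, they occurred in 1974 of 34943 RefSeq promoter windows of 300 bases (5.65%). The octamer ATGCAAAT, bound by OCT factors in snRNA enhancers, occurred in 620 of them (1.77%) and in none of these 4. The ATAC window of the first 3 copies was open: the counts per base of the interval with 125 bp added on each side were 31.1 ± 1.87, 48.6 ± 4.18 and 35.2 ± 1.73 times those of the 50 kb flanks in GFP cells (SD, n = 3). That of RNU4-29P was 0.658 ± 0.241 times its flanks (SD, n = 3), and this copy had no count in any small RNA library. Whether the opening belongs to the copy or to the gene that the promoter window is named for was not tested. The small RNA counts of the first 3 copies were far apart, with a mean of 21150.1 per library for RNU1-28P, 1558.1 for RNVU1-2A and 10.0 for RNU2-63P.

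A copy was counted as having reads at a mean of at least 1 small RNA count per library over the 12 libraries. This held for 259 of the 962 copies (26.9%) and for 197 of the 605 copies of RNA polymerase II families (32.6%). By name, it held for 57 of 103 U1 copies, 75 of 132 U2 copies, 17 of 83 U4 copies, 15 of 27 U5 copies and 95 of 617 others. Of all intervals in the table, 50.8% reached this level, as did 36 of 37 annotated U1, U2, U4 and U5 genes and 116 of 975 dispersed intervals named U6. The whole table has no length limit and also holds long non-coding RNAs, so its share is not matched to the copies in length. By family, only 8 of 200 U7 copies (4%) had reads, against 66 of 120 U1 copies (55.0%) and 85 of 147 U2 copies (57.8%). Among the SNAR RNAs, polymerase III transcripts that bind the protein NF90, 15 of 17 had reads. The threshold matters: 145 copies lie between 0.5 and 2 mean counts, 141 reach a mean of 10, 32 reach 1000, and 313 had no count in any library.

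**Figure D1:**
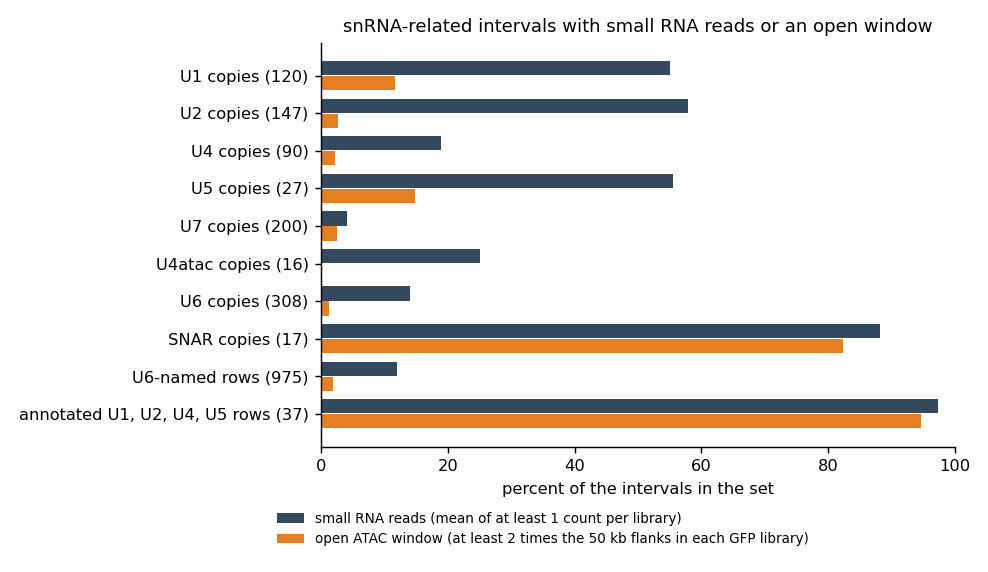
Share of each family, in percent of its intervals (numbers in brackets), with small RNA reads over 12 libraries (dark bars) and with an open ATAC window in the 3 GFP libraries (orange bars). U1, U2 and U5 copies reach 55.0% to 57.8% with reads, U7 copies 4%, and SNAR 88.2%; of the annotated genes 97.3% have reads and 94.6% an open window.

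The reads were concentrated in few copies. The dispersed copies together held 0.165% of all counts in the table, and the 5 highest of the 605 RNA polymerase II copies held 60.7% of that group's counts, the 20 highest 94.7%. The highest was RNU2-2, a U2 gene on chromosome 11 (GRCh38, chr11:62841594-62841834, minus strand) inside the coding gene WDR74. Its level was 202, 148 and 199 CPM in GFP and 205, 167 and 184 in LMNB2, with 237, 191 and 214 for LMNA and 175, 211 and 192 for LMNB1. The 4 groups overlap throughout. The neighbours RNU1-27P (chr14:34546691-34546902, plus strand) and RNU1-28P (chr14:34556201-34556414, minus strand) followed with mean counts of 24153.5 and 21150.1. RNVU1-28 had 20551.1 and LOC124904145, a U2 gene of RefSeq on chromosome 17, had 15874.4. RNU2-33P led the copies that RefSeq calls U2 pseudogenes (7878.8), and RNU5E-4P led the U5 copies (7722.9). Among U1 copies RNU1-22P on chromosome 16 had 673 counts, and among SNAR intervals SNAR-A5 on chromosome 19 had 5426.4. A U5 interval without a RefSeq gene (chr9:132421603-132421760, plus strand) had 32. The highest U4 copy, RNU4-82P inside GOLGA1, had only 22.6, and RNU4-78P had 12.8, RNU4-52P 8.33, RNU4-46P 5.33 and RNU4-13P 3.75.

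Several of these counts are close to those of an annotated gene elsewhere. RNU1-27P differed from 1 annotated RNU1-1 gene, on chromosome 1, by at most 1.45% in any of the 12 libraries, and RNU1-28P from another by at most 2.52%. RNVU1-28 stayed within 3.86% of yet another RNU1-1 gene, and RNU1-11P on chromosome 6 within 4.13% of RNVU1-1 on chromosome 1. RNU2-61P and RNU2-48P, on chromosomes 6 and 5, differed from each other by at most 10.3%. The 2 SNAR-A3 intervals overlap and differed by at most 0.022%. How reads that fit several places were counted is not given in the sources used here, so for such pairs the transcribed locus and a locus that only shares its sequence cannot be told apart, and the pairs are not independent. RNU2-2 had no such partner: its closest annotated gene, RNU2-1, differed by up to 37.0% in a library.

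A window was counted as open when its counts per base were at least 2 times those of its 50 kb flanks in each of the 3 GFP libraries. This held for 50 of the 962 copies (5.20%) and 29 of the 605 RNA polymerase II copies (4.79%), against 17.5% of all intervals and 35 of 37 annotated genes. By name they were 10 of 103 U1, 3 of 132 U2, 2 of 83 U4, 4 of 27 U5 and 31 of 617 other copies. The median copy had 0.48 times the density of its flanks. Its window held 5 ATAC counts in the median, against 162 for all intervals, which are not matched to the copies in length. By RefSeq symbol, 9 of 13 RNVU1 copies were open, against 5 of the other 107 U1 copies. The counts do not separate near-identical windows here either.

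The widest opening was at RNVU1-27 (chr1:148522576-148522790, plus strand), at 106, 98.8 and 102 times the flanks in the GFP libraries. RNVU1-21 followed at 62.8 ± 8.10, RNVU1-22 at 59.7 ± 6.57 and RNVU1-31 at 58.9 ± 3.53 (SD, n = 3). In U1, RNU1-27P stood at 49.7 ± 3.86 (SD, n = 3). RNU2-63P was the most open U2 copy, with RNU2-2 at 27.7 ± 1.16 and LOC124904147 at 14 ± 2.19 (SD, n = 3). Among the U5 copies, RNU5A-8P inside HHAT was open at 24.0 ± 1.48 and RNU5E-4P at 15.6 ± 0.160 (SD, n = 3). In U4, LOC124900516 reached 12.4 ± 1.76 (SD, n = 3) with a mean of 1.42 small RNA counts, while RNU4-72P and RNU4-55P had no small RNA count. RNU4-72P was open at 2.98, 2.73 and 4.57 times its flanks, on 14, 17 and 29 ATAC counts. RNU4-55P was not, because GFP replicate 1 stood at 0.756 against 3.29 and 3.11 in the others.

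Open windows were most frequent among the copies with most reads. Of the 50 open copies 39 had reads, but 220 copies with reads had no open window, and 692 had neither. Of the 21 RNA polymerase II copies with a mean of 1000 counts or more 10 were open, of the 20 with 100 to 1000 counts 2, of the 64 with 10 to 100 counts 7, of the 92 with 1 to 10 counts 4, and of the 245 with fewer but some counts none. Among the 163 with no count at all 6 were open, 5 of them U7 copies. One is RNU7-27P (chr7:128344056-128344167, plus strand), at 18, 16.8 and 13.2 times its flanks in GFP; it lies in the promoter window of RBM28, which runs on the opposite strand. Among the families, 5 of 7 U1 copies with 1000 counts or more were open, against 2 of 11 such U2 copies, a difference not tested here. The closed ones included RNU2-33P inside GSKIP, at 0, 0.287 and 0.238 times its flanks in GFP, RNU2-36P at 1.83, 1.01 and 0.679, and RNU1-138P, whose mean ratio was 0.328. The part that shared reads have in counts at closed windows was not tested.

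**Figure D2:**
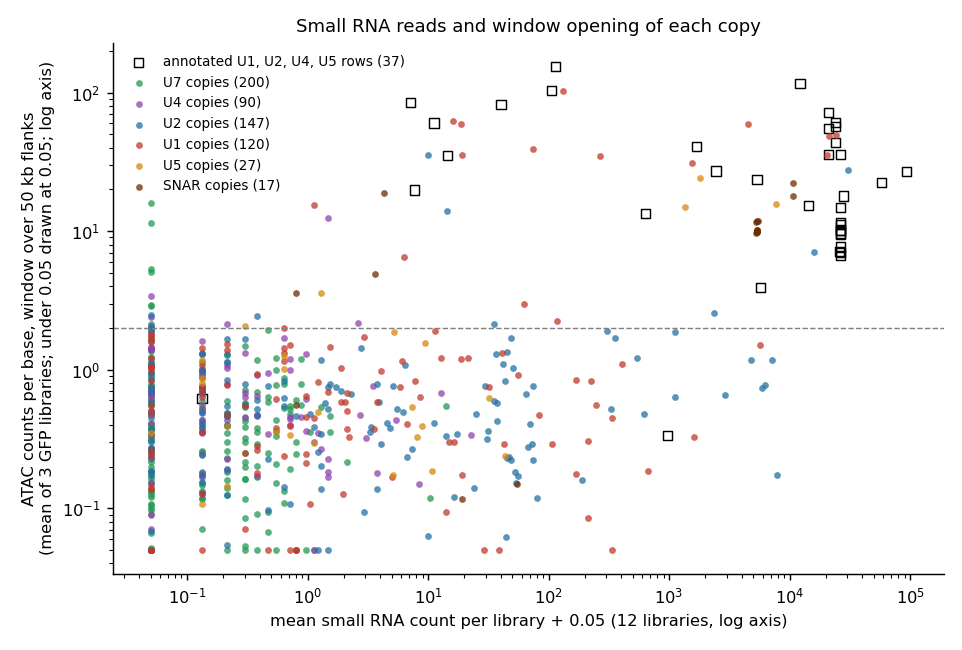
Each point is 1 interval: mean small RNA count per library plus 0.05 (12 libraries, log axis) against the ATAC density of its window over its 50 kb flanks (mean of 3 GFP libraries, log axis; dashed line at 2). Open squares are the 37 annotated genes, most of which lie in the upper right with RNU1-27P, RNU1-28P and RNU2-2. Most U2 copies with many reads lie below the line.

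For the small RNA comparisons of each lamin with GFP, edgeR's quasi-likelihood test was fitted over the 33893 intervals that passed a filter on low counts, with Benjamini-Hochberg adjustment over all of them. Of the 962 copies 150 passed the filter, 110 of them of RNA polymerase II families; a copy could pass through a single group in which it was high, so the tested copies do not stand for all. The 3 comparisons share the GFP libraries. One of these, GFP replicate 3, stood apart: it was the highest of the 12 libraries in 22 of 54 tested U2 copies and 11 of 26 tested U6 copies, while GFP replicates 1 and 2 were the lowest in 18 and 22 of the 54. The U2 level in the GFP libraries accordingly spanned 0.04, -0.46 and 0.79, given as the median over the 54 copies of log2(CPM + 0.01) minus each copy's GFP mean. For the 42 tested U1 copies the same measure was -0.01, 0.03 and 0.00. Both hold for TMM-scaled values. As a share of all counts, without that scaling, all U1 copies held 0.0273%, 0.0415% and 0.0484% in the GFP libraries. All U2 copies held 0.0276%, 0.0405% and 0.0797%.

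With LMNB2 overexpressed, 4 copies rose at an edgeR adjusted p under 0.05 and none fell. All 4 are U1 copies whose window did not count as open in GFP. The 4 are 2.67% of the 150 tested copies, near the share of all tested intervals. Of those 2.66% were called, 1.91% higher and 0.752% lower. At an unadjusted p under 0.05 were 35 higher and 9 lower copies, together 44 (43 of RNA polymerase II families), against 9.58%, 10.4% and 19.9% of all intervals. Leaving out any 1 LMNB2 library, or LMNB1 replicate 1 or 2, left no copy called; without LMNA replicate 1 there was 1, and without GFP replicate 2, LMNA replicate 2 or LMNB1 replicate 3 there were 2. In all, 37 of 42 U1 copies had a higher fitted level, with a median log2 fold change of 0.55 against -0.04 over all tested intervals, of which 46.8% were higher. With scaling by total counts, which moves the median of all intervals to 0.19, the U1 median was 0.76. Over all settings other than leaving out 1 library, the U1 median ran from 0.22 to 0.76. In 22 of the 42 each LMNB2 library was above each GFP library, against 12.1% of all intervals. The MIR17 cluster sum given above was lower in each LMNB2 library than in the other 9, and the 13 microRNAs of other tissues lay below GFP in each; their part in the U1 result was not tested. In bulk libraries a change in the RNA of each cell and in the share of cells that make it cannot be told apart.

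RNU1-11P, inside PHACTR1 (chr6:13214031-13214244, plus strand), had 26.2, 31.4 and 29.3 CPM in GFP and 47.9, 57.2 and 54.8 in LMNB2. In LMNA it had 36.7, 34 and 31 CPM and in LMNB1 29.7, 33.4 and 29. Both overlap the GFP range and lie below every LMNB2 library. Its log2 fold change for LMNB2 was 0.88 ± 0.20 (SE; edgeR adjusted p = 0.033). RNVU1-1, the annotated variant U1 gene with nearly the same counts, had 0.90 ± 0.20 (SE; edgeR adjusted p = 0.0316), so these intervals cannot be told apart.

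The other 3 had far fewer reads. RNU1-21P on chromosome 11 had 39, 66 and 121 counts in GFP and 153, 164 and 106 in LMNB2, which overlap. In TMM-scaled CPM it had 0.335, 0.485 and 0.682 against 0.923, 1.05 and 0.753, without overlap. Its log2 fold change was 0.83 ± 0.20 (SE; edgeR adjusted p = 0.0373). RNU1-139P on chromosome 21 had 0.241, 0.191 and 0.180 CPM in GFP against 0.344, 0.397 and 0.355 in LMNB2, with a log2 fold change of 0.82 ± 0.19 (SE; edgeR adjusted p = 0.0349). Its ATAC window held no count in any GFP library. RNU1-148P had 0.498, 0.603 and 0.817 CPM in GFP against 1.04, 1.07 and 1.21 in LMNB2, with a log2 fold change of 0.78 ± 0.20 (SE; edgeR adjusted p = 0.0465). Its ATAC window was above 2 times the flanks in 2 of the 3 GFP libraries, on few counts. In TMM-scaled CPM, the LMNB2 libraries of each of the 3 lie above all GFP, LMNA and LMNB1 libraries. With scaling by total counts only, RNU1-139P was the 1 of the 4 called copies that kept its call.

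**Figure D3:**
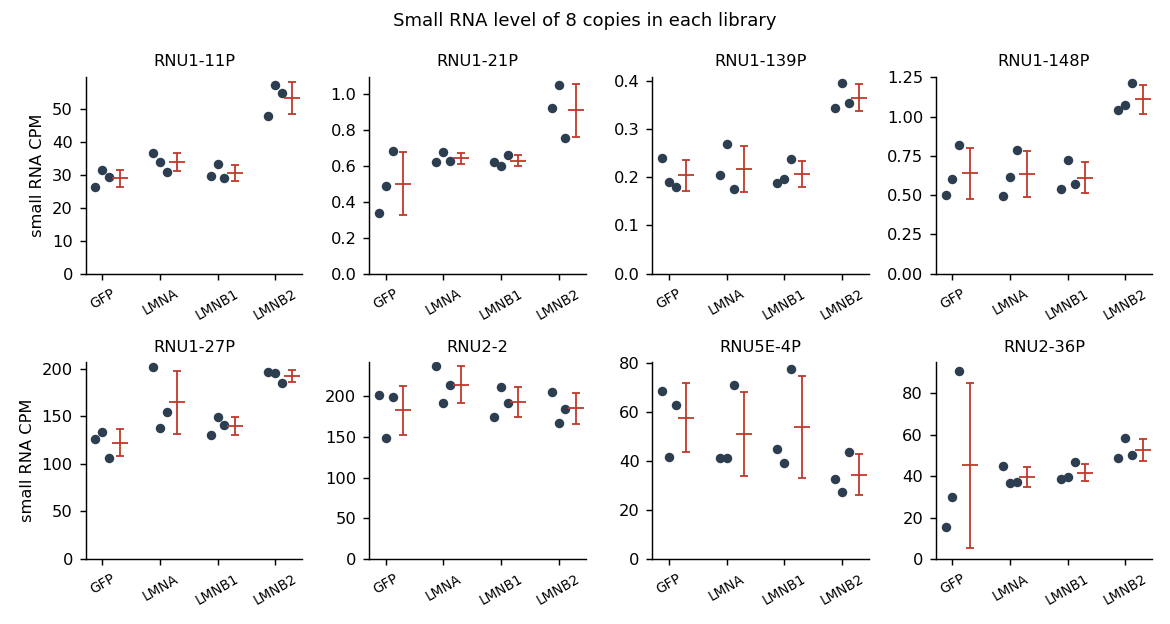
Small RNA level in TMM-scaled CPM of 8 copies. Dots are the 3 libraries of each group and the red mark is the mean with its SD. In the upper row, the 4 copies called for LMNB2, every LMNB2 library lies above every other; below, RNU1-27P is higher in LMNB2 than in GFP and called by DESeq2 but not by edgeR, RNU2-2 overlaps throughout, and RNU2-36P spans 15.7 to 90.7 CPM within GFP.

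The U1 copies with most reads were also higher. RNU1-27P, RNU1-28P and RNVU1-28 did not pass the adjusted threshold in edgeR and did pass it in DESeq2. RNU1-27P had 126, 134 and 106 CPM in GFP against 196, 196 and 185 in LMNB2, with 202, 138 and 155 in LMNA and 130, 149 and 141 in LMNB1. LMNB2 did not overlap GFP (log2 fold change 0.66, edgeR adjusted p = 0.124). RNU1-28P and RNVU1-28 gave 0.67 each for LMNB2. Both follow annotated RNU1-1 genes in count, and the annotated U1 genes had a median log2 fold change of 0.67 for LMNB2, with 13 of 15 higher and 2 called, RNVU1-1 and RNVU1-19. By window, the median was 0.63 over 12 open U1 copies (10 higher) and 0.52 over 30 closed ones (27 higher), a difference not tested here. By reads, 21 of 21 U1 copies with a mean of 100 counts or more were higher (median 0.63), and 16 of 21 with fewer (median 0.34). The copies share the GFP libraries and can share reads, so these tallies do not count independent observations.

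Of the 54 U2 copies tested for LMNB2, 21 were higher and 33 lower, with a median log2 fold change of -0.16, and 10 were higher and 1 lower at an unadjusted p under 0.05. Of all tested intervals 46.8% were higher, and 9.58% were higher and 10.4% lower at an unadjusted p under 0.05. The higher ones were mostly those with many reads: 14 of 17 with a mean of 100 counts or more (median 0.47), but 7 of 37 with fewer (median -0.29). RNU2-33P had 25.9, 45.6 and 47.0 CPM in GFP and 66.5, 67.8 and 67.1 in LMNB2, without overlap (log2 fold change 0.77, edgeR adjusted p = 0.0895). RNU2-61P and RNU2-48P, which nearly share their counts, gave 0.79 and 0.81. RNU2-36P had 15.7, 29.7 and 90.7 CPM in GFP, a range that holds all other libraries. With all libraries kept, DESeq2 called 4 U2 copies higher for LMNB2, RNU2-33P, RNU2-48P, RNU2-61P and RNU2-64P, and edgeR without a count filter called the first 3 of these. The values move with the library named above: without GFP replicate 3 the median over the U2 copies was 0.32. In that fit 23 copies were called for LMNB2, all higher, 8 of them U1 and 15 U2. The calls over all intervals move too: leaving out 1 library gave 51 to 2101 for LMNB2, against 901 with all libraries. The other settings, DESeq2 and the fit without a count filter among them, gave 21 to 1745.

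Of the 9 U5 copies tested for LMNB2, 8 had a lower fitted level than GFP, 6 of those at an unadjusted p under 0.05 and none called by edgeR. Of all 33893 tested intervals 18040 had a lower fitted level, and 10.4% were lower at an unadjusted p under 0.05. Without a count filter edgeR called 5 U5 copies lower, namely RNU5A-2P, RNU5A-6P, RNU5E-2P, RNU5F-4P and RNU5F-7P, and without GFP replicate 2 it called RNU5E-2P lower. DESeq2, and edgeR without LMNA replicate 2, called 1 U5 copy, RNU5E-10P, which was higher. The median log2 fold change was -0.80, against -0.46 over 5 annotated U5 genes, which were all lower. RNU5E-4P had 68.7, 41.7 and 63.1 CPM in GFP and 32.6, 27.2 and 43.7 in LMNB2, which overlap (log2 fold change -0.74, edgeR adjusted p = 0.194). RNU5E-2P inside LYST, a copy with 9.42 mean counts, had the lowest p of the copies below GFP (log2 fold change -1.45 ± 0.44 SE, edgeR adjusted p = 0.0837). One U5 copy was opposite: RNU5E-10P inside KBTBD4 had 0.120, 0.198 and 0.0394 CPM in GFP, 0.242, 0.361 and 0.412 in LMNB1, and 0.513, 0.429 and 0.611 in LMNB2 (log2 fold change for LMNB2 2.05, edgeR adjusted p = 0.142). RNU5A-8P had -0.35. Just 2 U4 and 2 U7 copies could be tested, and neither family had a call.

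**Figure D4:**
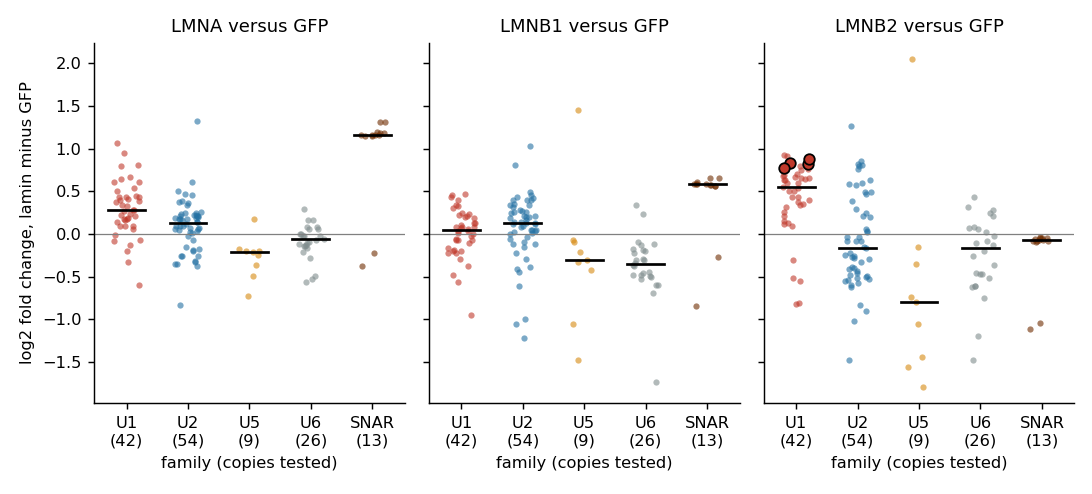
Log2 fold change against GFP of each tested copy, by family (number of copies in brackets), for LMNA, LMNB1 and LMNB2; black bars are medians and outlined points have an edgeR adjusted p under 0.05. Outlined points appear only among U1 copies in LMNB2, where the U1 median is 0.55 and the U5 median -0.80.

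For LMNA neither edgeR nor DESeq2 called a copy (0 copies), and edgeR called no interval of the whole table (0.0%). Without a count filter edgeR called 14 copies higher, 11 SNAR-A intervals and the U1 copies RNU1-88P, RNVU1-2 and RNVU1-2A. Settings other than leaving out 1 library called 0 to 111 intervals of the whole table for LMNA. At an unadjusted p under 0.05 were 20 copies (19 higher, 1 lower), against 5.46% of all intervals (2.83% higher, 2.63% lower). Of the 19, 11 were SNAR-A intervals, with log2 fold changes of 1.15 to 1.32, and 8 were U1 copies. Each of the 11 stayed within 4.65% of another SNAR-A interval in every library, and the 2 overlapping SNAR-A3 intervals are among them. They cannot be counted as independent. Single libraries move with the SNAR values: of 13 tested SNAR intervals GFP replicate 2 was the lowest library in 12 and LMNA replicate 2 the highest in 11, and no SNAR interval had LMNA and GFP libraries apart. The U1 median was 0.28, with 35 of 42 higher, against -0.05 and 43.1% higher over all intervals. LMNA replicate 1 was the highest of the 12 libraries in 16 of the 42, with a U1 level of 0.61 on the scale of the median over copies used above, against 0.22 and 0.31 in the other LMNA libraries; without it the U1 median log2 fold change was 0.26. RNU1-88P on chromosome 6 had 1.45, 0.970 and 1.18 CPM in GFP and 3.14, 1.57 and 1.60 in LMNA, without overlap (log2 fold change 0.81 ± 0.25 SE, edgeR adjusted p = 0.882). The 1 lower copy was RNVU1-34, an open U1 copy in TEX14 and IGBP1C, with 0.112, 0.206 and 0.163 CPM in GFP against 0.0933, 0.0759 and 0.135 in LMNA, which overlap (log2 fold change -0.60 ± 0.26 SE, edgeR adjusted p = 0.895).

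For LMNB1 edgeR and DESeq2 called 0 copies, against 0.0384% of all intervals by edgeR, and edgeR gave 5 copies at an unadjusted p under 0.05 (5.51% of all). The U1 median was 0.05 and the U2 median 0.13. RNU7-3P inside PPIL4 had 0.109 ± 0.0545 CPM in LMNB1 and 0.0472 ± 0.0235 in GFP (SD, n = 3; edgeR adjusted p = 0.777). RNU2-15P inside DNAJC6 had 0.0558 ± 0.0120 against 0.126 ± 0.0450 (SD, n = 3; edgeR adjusted p = 0.761). Neither difference passed.

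Whether the 3 lamins differ from each other was asked with a joint edgeR test of LMNB1 against LMNA and LMNB2 against LMNA. It called 2 copies, RNU1-139P (adjusted p = 0.0413) and RNU1-148P (adjusted p = 0.0331), against 1.93% of all intervals. At an unadjusted p under 0.05 were 40 of 150 copies, against 16.0% of all. In RNU1-139P the log2 fold changes against GFP were 0.09 for LMNA, 0.03 for LMNB1 and 0.82 for LMNB2, and in RNU1-148P they were -0.02, -0.08 and 0.78. RNU1-11P missed the threshold (edgeR adjusted p = 0.0678). The 2 called are 1.33% of the 150 tested copies, below the share of all intervals, and with the replicate block RNU1-148P alone was called.

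**Figure D5:**
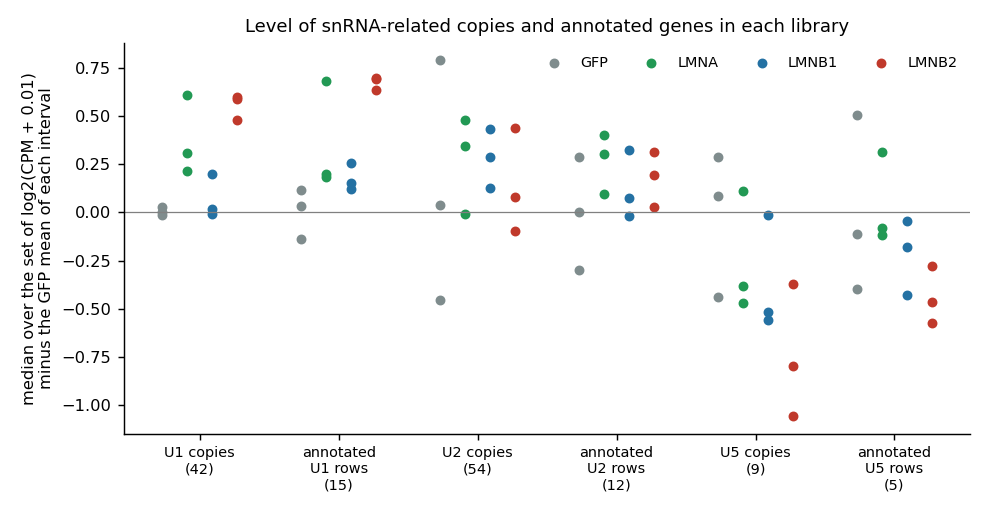
Level of U1, U2 and U5 copies and of annotated genes of the same families in each small RNA library, as the median over the set (number of intervals in brackets) of log2(CPM + 0.01) minus each interval's GFP mean. The 3 LMNB2 libraries lie at 0.48 to 0.60 for U1 copies and 0.63 to 0.70 for annotated U1 genes, while the GFP libraries spread from -0.46 to 0.79 for U2 copies.

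RNU1-138P was uneven between libraries of a group. This U1 copy (chr4:113420298-113420511, plus strand) had 1029, 1938 and 42 counts in GFP and 2507, 2902 and 1486 in LMNB2, with 2278, 2126 and 53 for LMNA and 1969, 1548 and 1600 for LMNB1. The low values are those of replicate 3 of GFP and of LMNA alone. Its fitted log2 fold change for LMNB2 was 0.92 ± 1.35 (SE; edgeR adjusted p = 0.756).

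For chromatin opening edgeR called no copy, while RNU5A-8P was called in the joint test under some other settings, DESeq2 among them. The ATAC fit covered 163786 windows, 331 of them copies and 219 of RNA polymerase II families, and edgeR called 0 copies, against 0.000611% of all windows for LMNA, 0.00305% for LMNB1, 0.00244% for LMNB2 and 0.0916% in the joint test. At an unadjusted p under 0.05 were 15, 16 and 12 copies and 16 in the joint test, against 5.19%, 4.78%, 5.72% and 6.24% of all windows. DESeq2 called 0 copies for each lamin and 1, RNU5A-8P, in the joint test. The median log2 fold change of the copies was -0.02 for LMNA, 0.05 for LMNB1 and -0.03 for LMNB2, and that of the 60 tested U1 copies was -0.04, 0.04 and -0.03. Of the 4 U1 copies called in small RNA, RNU1-11P passed the ATAC filter and was not called.

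Among the open copies, RNVU1-27 ran from 95.2 to 118 times its flanks over the 9 lamin libraries, which overlap GFP. RNU1-27P ran from 41.8 to 55.2 over all 12 libraries. RNU2-2 ran from 24.3 to 29.0 over all 12 libraries. RNU5A-8P came closest to a difference, with 2.01, 1.83 and 1.68 ATAC CPM in GFP and 1.49, 1.63 and 1.42 in LMNB2, against 2.11, 1.82 and 1.88 for LMNA and 2.41, 2.03 and 2.03 for LMNB1. LMNB2 lay below all other libraries (log2 fold change -0.28 ± 0.11 SE, edgeR adjusted p = 0.86; joint test adjusted p = 0.0852).

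The ATAC windows with the lowest p in each comparison held few counts. For LMNA they were RNU7-76P, with 3, 4 and 2 counts in GFP and 16, 16 and 17 in LMNA (edgeR adjusted p = 0.739), and RNU6-1057P, with 10, 6 and 8 against 4, 0 and 0 (edgeR adjusted p = 0.837). For LMNB1 they were LOC124901190, with 4, 11 and 11 against 32, 33 and 23 (edgeR adjusted p = 0.978), and RNU5F-7P, with 8, 5 and 12 against 2, 4 and 5 (edgeR adjusted p = 0.978). For LMNB2 they were RNU1-129P, with 12, 2 and 13 against 41, 35 and 30 (edgeR adjusted p = 0.86), and RNU6-247P, with 8, 2 and 16 against 0, 2 and 0 (edgeR adjusted p = 0.715). None passed the adjusted threshold.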

How the data were processed

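The authors deposited raw counts, a table per assay, with 12 libraries each; per the submitters' processing notes the build is GRCh38. Aligner, counter, use of strand, handling of reads that fit several places and of duplicates, and any shift of ATAC reads are not given in the sources used here. Near-identical and overlapping intervals can therefore share reads (407 copies overlap another interval of the table), and copies cannot be treated as independent. Members, families and lists were chosen with earlier results of these data known. Groups came from sample titles. The sample titles name no batch within an assay, and none was fitted in the main test.

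Counts were fitted with edgeR 4.0.16 (R 4.3.3): filterByExpr, TMM scaling, robust quasi-likelihood test, all 12 libraries together, prior count 2, Benjamini-Hochberg adjustment over all tested rows, threshold 0.05. SE is the fold change over the root of F. The fit was also run on simulated counts with a common dispersion, in which only intervals with higher counts were changed. That run does not cover copies with few counts, and no result here rests on it. Alternatives included DESeq2 1.42.0. Named copies were the 5 with the highest mean CPM and the 3 most open per name stem, those called, and the lowest p in each direction per comparison. RNU4-29P, RNVU1-2A, RNVU1-19, RNU1-138P and others shown for sequence, closeness of counts or a changed call were chosen after their values were seen. Replicate numbers do not pair the samples by any label. One copy that the naming rule takes is not reported here.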

Additional observations from a re-analysis of the deposited data

Results flagged for a closer look

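For 2 copies the response differed between the lamins in the joint edgeR test, 1.33% of the 150 tested, against 1.93% of all intervals. RNU1-139P (edgeR adjusted p = 0.0413) had 0.217 ± 0.0479 CPM in LMNA, 0.207 ± 0.0271 in LMNB1 and 0.365 ± 0.0278 in LMNB2 (SD, n = 3), with GFP at 0.204 ± 0.0321, and 38.4 counts per library. RNU1-148P (edgeR adjusted p = 0.0331) had 0.634 ± 0.147, 0.609 ± 0.0988 and 1.11 ± 0.0914 CPM, with GFP at 0.639 ± 0.162, and 117.2 counts per library. In both, all 3 LMNB2 libraries lay above the other 9 in TMM-scaled CPM.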

How the results depend on the processing

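The 4 copies called for LMNB2 stayed higher under every setting in which they were tested, but medians near 0 changed sign. With 1 library left out, the U2 median log2 fold change ran from -0.48 to 0.32 for LMNB2 (-0.16 with all). It ran from -0.11 to 0.62 for LMNA (0.12) and from -0.15 to 0.56 for LMNB1 (0.13). The median over all tested copies for LMNB2 ran from -0.28 to 0.31 (-0.03). The U1 median for LMNB2 ran from 0.49 to 0.59 (0.55) with 1 library left out, and from 0.22 to 0.76 under the other settings. For LMNB2, 4 copies were called in the small RNA; this became 0 at an adjusted p under 0.01, 1 with scaling by total counts only, 15 without a count filter, 0 with only the libraries compared and 11 with DESeq2. Leaving out 1 library gave 0 to 23. The 23, without GFP replicate 3, were 8 U1 and 15 U2 copies. Among all tested intervals 901 were called for LMNB2 in the main fit. That number ran from 51 to 2101 with 1 library left out and from 21 to 1745 under the other settings. The joint test called 2 copies. This became 0 at an adjusted p under 0.01, 0 with total counts, 20 without a count filter and 23 with only the lamin libraries. It became 0 to 8 with 1 library left out. Among all intervals the joint test called 654, which ran from 117 to 2222 with 1 library left out and from 79 to 3887 under the other settings. For LMNA 0 became 14 without a count filter and 0 to 1 with 1 library left out (RNU4-82P, without GFP replicate 3), and for LMNB1 0 became 1 without a count filter. With the replicate block, the small RNA joint test called 1 (RNU1-148P, while RNU1-139P was lost) and the ATAC joint test 1 (0 without it). The 4 calls for LMNB2 stayed 4, and no other count of called copies changed. Deviations of log CPM from the group mean were correlated between libraries of different groups. In small RNA, same-numbered libraries gave -0.04 to 0.23 and other-numbered ones -0.21 to 0.07. There, 8 of 12 correlated best with their own number. In ATAC the ranges were -0.08 to 0.19 and -0.15 to 0.09 (6 of 12). The ATAC joint test also called 1 with only the libraries compared and with DESeq2, and 0 to 1 with 1 library left out, each time RNU5A-8P. The causes were not tested.

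Copies with reads were 259, and 141 at a mean of 10 counts, 649 with a count in any library, 170 with a count in each library and 150 among those that overlap no other interval. Open copies were 50, and 36 to 64 under other settings; the 36, from a minimum of 50 ATAC counts, was an alternative chosen after seeing the data. Over the settings, RNU1-11P kept its call for LMNB2 in 12 of 21, RNU1-139P in 10, RNU1-21P in 8 and RNU1-148P in 7, with edgeR or DESeq2 adjusted p-values of 1.97e-06 to 0.194 and log2 fold changes from 0.61 to 1.16. Depth limited the tests to the 150 copies that passed the count filter, and SEs cover the spread between these libraries.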
